A study of Mus musculus with 4 samples.

Results

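Integrins are adhesion receptors built from an alpha and a beta chain, and a leukocyte carries several of them because beta chains pair with a choice of alpha chains. Natural killer (NK) cells, innate lymphocytes that kill infected and transformed cells, use them to leave blood vessels, hold their place in tissue and form the contact through which lytic granules are delivered. The set described here is the 10 integrin chain genes other than those for CD11b and CD11c that were given by name: the beta chain genes Itgb1, Itgb2, Itgb3 and Itgb7, and the alpha chain genes Itga1, Itga2, Itga4, Itga6, Itgal and Itgav. All 10 were found by their Entrez gene number among the 26611 genes of the count table, and all 10 passed the filter on low counts, with between 149 and 147395 counts in each library.

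RNA was sequenced from spleen NK cells of C57BL/6 background in 2 wild-type (WT) and 2 Tcf7 knock-out (KO) libraries. The labels call the libraries of a genotype replicates and do not say whether each came from its own mouse or from pooled mice. The p-values therefore set a difference only against the spread between these libraries, partly shared across genes, and that spread may be technical. Tcf7 encodes Tcf-1, a transcription factor of the Wnt pathway that lymphocytes use during development. Both genotypes were sorted in the same way, for cells that lacked TCRbeta and carried NK1.1, NKp46, CD11b and KLRG1. The age of the mice, the kind of Tcf7 allele and the cells in which it was inactive are not given in the sources used here. CD11b is itself an integrin chain and CD11b and KLRG1 mark late NK cell maturation, so only mature cells that bear CD11b at the surface were compared. In sorted cells measured in bulk, fewer cells of a type and less RNA per cell cannot be told apart.

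The libraries held 28254693 to 40175537 counts. Tcf7 stood at 89.5 and 79.1 CPM (counts scaled to a common library total) in WT against 11.2 and 25.1 CPM in KO, so the targeted transcript was lower in both KO libraries and not at 0. Klrb1c (NK1.1) stood at 3595 to 4767 CPM and Ncr1 (NKp46) at 1510 to 1732 CPM over the 4 libraries. The 12 NK cell markers summed to 37135 and 31074 CPM in WT against 40199 and 32187 CPM in KO. Markers of macrophages, monocytes and neutrophils summed to 167.3 and 38.3 CPM in WT against 624.8 and 98.3 CPM in KO, with Elane, at 0 in WT library 2, the only marker of the 16 at 0 in any library, and erythroid markers to 36.0 and 28.0 against 196.4 and 121.8 CPM. Their part in the results below was not tested. All levels are scaled with TMM factors, which correct library totals for differences in composition.

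Levels per kilobase of the deposited gene length, the scale on which different genes can be set side by side, spanned a wide range. In WT cells the order of the means was Itgb2, Itgal, Itgb7, Itgb1, Itga4, Itga2, Itga6, Itgav, Itgb3 and Itga1. Itgb2 stood at 1317 ± 7.69 CPM per kilobase and Itga1 at 1.56 ± 1.12 (SD, n = 2). Along this order Itgal overlapped with Itgb7, and Itgb3 with Itga1, and the WT libraries of all other neighbours did not overlap. By their means the first 8 places were the same in KO cells, where Itgal and Itgb7 again overlapped. In KO library 1 Itgb7 stood above Itgal (434.9 against 351.2 CPM per kilobase). Itga1 and Itgb3, whose libraries also overlapped in KO, stood in the other order. Among all 26611 genes of the table, Itgb2 ranked between 37 and 57 in the 4 libraries by this level, while Itga1 ranked between 8940 and 10641.

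**Figure D1:**
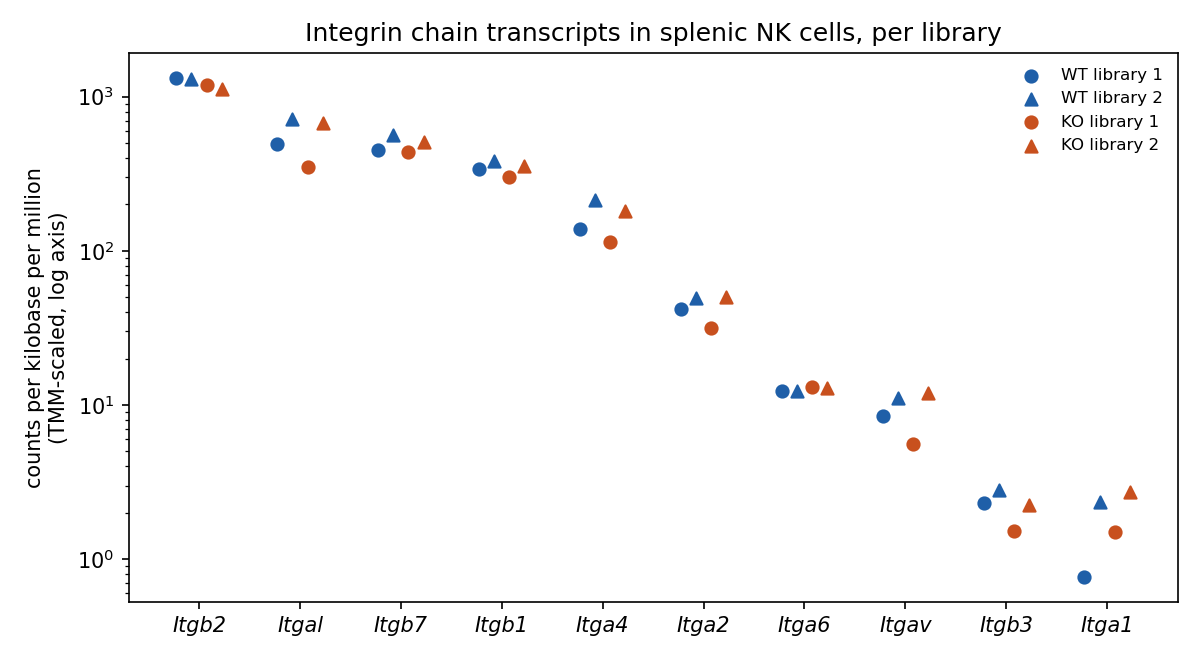
Level of each integrin chain transcript in CPM per kilobase (log axis, TMM-scaled), 1 point per library, with genes ordered by their WT mean. Itgb2 is highest in all 4 libraries, between 1128 and 1322, and for 8 genes both libraries numbered 2 lie above the library numbered 1 of the same genotype.

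The comparison of KO with WT asks whether mature NK cells carry other amounts of integrin transcripts without Tcf-1. None of the 10 genes passed edgeR's quasi-likelihood test at an adjusted p under 0.05, where 0% of 12723 tested genes passed. None of the 10 had an unadjusted p under 0.05 either (0.209 to 0.730), where 2.84% of all tested genes had one. Tcf7 itself did not pass in edgeR (log2 fold change -2.22, SE 0.45, edgeR unadjusted p 0.00607, DESeq2 adjusted p 0.00249). Not passing therefore does not show that a level was unchanged. DESeq2, which called 0.585% of its genes, and limma voom called none of the 10. The median log2 fold change, KO minus WT, was -0.16 over the 10 genes and -0.01 over all tested genes. 8 of the 10 had a fold change below 0, as had 51.8% of all tested genes. For 3 of the 10 the genotypes did not overlap, against 21.2% of all tested genes: KO was the lower for Itgb2 and Itgb3, an arrangement found in 11.6% of all tested genes, and the higher for Itga6, an arrangement found in 9.64%. KO was below WT in both same-numbered comparisons for 6 of the 10, against 30.8% of all tested genes. With the replicate number as a block, edgeR called none of the 10 and 1.74% of all tested genes. With the block the number with a fold change below 0 stayed at 8. Without WT library 2 that number was 4 in place of 8, and without KO library 1 it was 3. Every fit with 1 library left out, here and below, leaves the library numbers unbalanced between the genotypes.

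**Figure D2:**
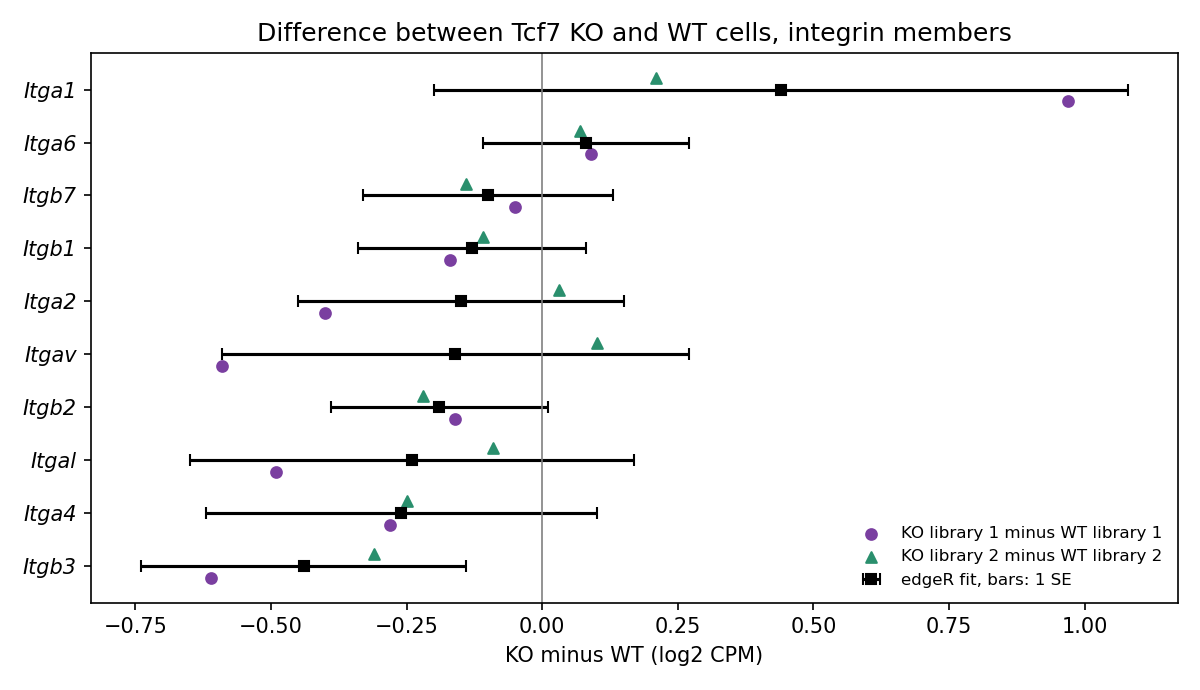
KO minus WT difference in log2 CPM for the 10 integrin genes, with the edgeR estimate and its standard error (SE, square and bar) and the difference between libraries of the same number (circle for 1, triangle for 2). The SE bar of Itgb3 lies wholly below 0, the bars of the other 9 genes reach across 0, and no gene passed the test.

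Itgb2 encodes the beta 2 chain (CD18), which is shared by the leukocyte integrins and without which none of them reaches the cell surface. Its transcript stood at 3784 and 3753 CPM in WT against 3383 and 3227 CPM in KO. Both KO libraries were lower, and the libraries of a genotype lay close together. The means were 3768 ± 22.02 CPM for WT and 3305 ± 110 CPM for KO (SD, n = 2 each), a log2 fold change of -0.19 (SE 0.20) with an edgeR adjusted p of 1.00. The SE comes from a spread shared across genes, and the difference was about as large as that SE. Itgb2 lies on mm10 chromosome 10 from 77530329 to 77565708.

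Itgal (chromosome 7, 127296139 to 127335137) encodes the alpha L chain (CD11a). With beta 2 it forms LFA-1, the receptor for ICAM proteins that holds the contact between an NK cell and its target. Itgal stood at 2583 and 3720 CPM in WT against 1835 and 3505 CPM in KO. Here the libraries of a genotype lay far apart, those numbered 2 were the higher in both genotypes, and the groups overlapped. The log2 fold change was -0.24 (SE 0.41, edgeR adjusted p 1.00), and the same-numbered differences were -0.49 and -0.09. It turned to 0.06 without WT library 2 and to 0.15 without KO library 1.

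On chromosome 7, Itgal is followed within the same megabase by Itgam, Itgax and Itgad, which encode the other alpha chains that pair with beta 2. Itgam (CD11b) stood at 1149 and 1547 CPM in WT against 943 and 1418 CPM in KO, and Itgax (CD11c) at 733 and 603 against 1127 and 1165 CPM. None of the 3 passed the test. Per kilobase, Itgal made up 53.2% and 59.4% of these 4 alpha chains in WT and 41.5% and 52.8% in KO. Itgax made up 19.6% and 12.5% in WT and 33.1% and 22.8% in KO, and Itgam 26.4% and 27.6% against 23.8% and 23.8%. Both KO libraries were thus below both WT libraries in the share of Itgal and of Itgam, and above them in the share of Itgax. For Itgal the nearest shares were 53.2% in WT and 52.8% in KO, and the levels of Itgal and of Itgam overlapped between the genotypes. Shares of the same sum depend on each other, no count over all genes stands beside these, and they were not tested. The same-numbered differences of Itgax were 0.62 and 0.95. Its edgeR adjusted p was 1.00 (0.0322 with the replicate number as a block), and its DESeq2 adjusted p 0.712. Myeloid cells also express Itgax, Itgam and Itgb2. The summed myeloid markers were higher in KO in both same-numbered comparisons (167.3 to 624.8 and 38.3 to 98.3 CPM). Singly, 7 of the 16 markers were higher in KO in both comparisons and 0 lower in both, with Elane, at 0 in WT library 2, not counted. Csf1r, for example, stood at 14.0 and 7.64 CPM in WT against 24.1 and 6.46 CPM in KO. The part of myeloid cells in these levels was not tested. The summed level of the 4 alpha chains was 0.703 and 0.914 of the level of Itgb2 in WT and 0.716 and 1.13 in KO, so that the groups overlapped.

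Itgb1 (chromosome 8, 128685654 to 128733579) encodes the beta 1 chain, the partner of most alpha chains that bind matrix proteins. It stood at 1422 and 1612 CPM in WT against 1268 and 1497 CPM in KO, and the groups overlapped. The log2 fold change was -0.13 (SE 0.21, edgeR adjusted p 1.00). The difference between same-numbered libraries was -0.17 and -0.11, smaller than the distance between the libraries of either genotype.

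Itga1 and Itga2 encode collagen receptors, the alpha 1 chain (CD49a), a surface marker of tissue-resident NK and type 1 innate lymphoid cells, and the alpha 2 chain (CD49b, which the DX5 antibody detects), a surface marker of circulating mouse NK cells. The genes are neighbours on the minus strand of chromosome 13, Itga2 from 114833081 to 114932100 and Itga1 from 114958079 to 115101964. Itga1 stood at 4.58 and 14.1 CPM in WT against 9.002 and 16.3 CPM in KO. WT library 1 was the lowest and the groups overlapped. Itga2 stood at 177 and 209 CPM in WT against 134 and 213 CPM in KO, with KO library 1 the lowest and the groups overlapping.

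The log2 fold change was 0.44 for Itga1 (SE 0.64) and -0.15 for Itga2 (SE 0.30), both with an edgeR adjusted p of 1.00. That of Itga1 was, with that of Itgb3 (-0.44), the largest of the 10 in size. The fold change of Itga1 was -0.15 without WT library 1, a fit in which the library numbers are unbalanced between the genotypes. Leaving out KO library 2 gave -0.02, and leaving out WT library 2 gave 1.48. The same-numbered differences of Itga1 were 0.97 and 0.21. For Itga2 they were -0.40 and 0.03, and the fold change turned to 0.14 without KO library 1. Per kilobase Itga2 stood at 45.7 ± 5.39 in WT and 41.1 ± 13.3 in KO (SD, n = 2 each), far above Itga1 in each library. Of the markers of type 1 and other innate lymphoid cells 9 of 11 were tested, 7 of them below 0, and the list summed to 94.7 and 135.1 CPM in WT against 71.4 and 119.4 CPM in KO. Gata3 contributed 46.6 and 82.8 CPM of this sum in WT against 29.8 and 87.7 CPM in KO. The interleukin 7 receptor gene Il7r stood at 9.38 and 5.81 against 0.648 and 1.08 CPM, a difference of -3.12 in log2 (edgeR adjusted p 1.00, and 0.00504 with the replicate block, DESeq2 adjusted p 1.3e-05). Rora stood at 2.34 and 5.65 against 0.648 and 1.69 CPM (-1.76, edgeR adjusted p 1.00, and 0.0345 with the replicate block, DESeq2 adjusted p 0.879). The 2 tested genes of the list above 0 were Cxcr6 (0.11) and Il1rl1 (0.84). The part of these markers in the level of Itga1 was not tested. The small gene Pelo lies inside Itga1 and was counted 466 to 645 times per library, and since the strand setting of the counting is not given, its reads and those of Itga1 could be mixed.

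The upstream regions of these neighbours are shown because Tcf-1 binds DNA. Of the 6 members with a promoter in the RefSeq table (GRCm38.p6), Itga1 alone had a match to the Tcf/Lef core. The core was spelled as CTTTGAA, with the further spellings CTTTGAT as well as CTTTGTA and, lastly, also the spelling CTTTGTT, and these were searched on both strands in the 250 bases before the start. At least 1 of them occurs in 14.8% of the 32851 promoter windows of the table. The match is in capitals and begins 113 bases before the start of Itga1, on the strand of the gene. Itga2 had no match in this window, and neither had Itga4 and Itgb1. The windows of Itgav and Itgb7, which also had no match, belong to transcript starts inside the gene bounds given here, and that of Itgb7 overlaps an exon of Itgb7. Both sequences are given in the direction of the gene, from chr13:115101965-115102214 and chr13:114932101-114932350, minus strand.
Itga1: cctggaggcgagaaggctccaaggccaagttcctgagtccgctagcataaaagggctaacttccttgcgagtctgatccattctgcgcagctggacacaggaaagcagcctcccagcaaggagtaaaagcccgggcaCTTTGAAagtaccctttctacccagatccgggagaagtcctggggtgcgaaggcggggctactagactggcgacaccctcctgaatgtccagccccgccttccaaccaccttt
Itga2: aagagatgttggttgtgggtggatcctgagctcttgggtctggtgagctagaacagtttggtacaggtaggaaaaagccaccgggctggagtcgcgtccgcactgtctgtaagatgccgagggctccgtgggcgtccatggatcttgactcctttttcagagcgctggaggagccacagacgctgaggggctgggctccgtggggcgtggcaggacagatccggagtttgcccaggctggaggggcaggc

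Itga6 (chromosome 2, 71786886 to 71858427) encodes the alpha 6 chain, a laminin receptor with beta 1. It stood at 51.9 and 51.6 CPM in WT against 55.3 and 54.3 CPM in KO. Both KO libraries were above both WT libraries, and no library was more than a few CPM from any other. The log2 fold change was 0.08 (SE 0.19, edgeR adjusted p 1.00), and 0.09 and 0.07 between same-numbered libraries.

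Itga4 (chromosome 2, 79255426 to 79333114) encodes the alpha 4 chain, which binds VCAM-1 and fibronectin with beta 1 and the gut addressin MAdCAM-1 with beta 7. It stood at 1365 and 2112 CPM in WT against 1123 and 1772 CPM in KO. The libraries numbered 1 were the lowest of both genotypes, and the groups overlapped. The log2 fold change was -0.26 (SE 0.36, edgeR adjusted p 1.00), with -0.28 and -0.25 between same-numbered libraries. With the trend on gene length taken out these differences were 0.04 and -0.23. It turned to 0.10 without WT library 2 and to 0.03 without KO library 1, fits in which the library numbers are unbalanced between the genotypes. At 9832 bases Itga4 has the longest gene model of the 10, and the end of Cerkl, counted 70 to 88 times per library, overlaps it.

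Itgb7 (chromosome 15, 102215994 to 102233405) encodes the beta 7 chain, the partner of alpha 4 in gut homing and of alpha E in epithelial tissue. It stood at 1202 and 1502 CPM in WT against 1163 and 1362 CPM in KO, and the groups overlapped. The log2 fold change was -0.10 (SE 0.23, edgeR adjusted p 1.00), and 0.09 and 0.01 without WT library 2 and KO library 1. Itgae, the gene of the alpha E chain, stood at 2.50 to 5.32 CPM over the 4 libraries.

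Itgav and Itgb3 encode the alpha V and beta 3 chains, which together form a vitronectin receptor that recognises RGD peptides. Itgav (chromosome 2, 83722303 to 83806917) stood at 59.6 and 78.6 CPM in WT against 39.6 and 84.3 CPM in KO. The KO libraries were the lowest and the highest of the 4, so the groups overlapped. Its log2 fold change was -0.16 (SE 0.43, edgeR adjusted p 1.00), with same-numbered differences of -0.59 and 0.10. It turned to 0.07 without WT library 2 and 0.29 without KO library 1, and was -0.77 without KO library 2.

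Itgb3 (chromosome 11, 104608000 to 104670476) stood at 13.4 and 16.1 CPM in WT against 8.76 and 13.1 CPM in KO. The genotypes did not overlap, although KO library 2 was less than 1 CPM under the lower WT library. The means were 14.8 ± 1.93 CPM for WT and 10.9 ± 3.04 CPM for KO (SD, n = 2 each), with a log2 fold change of -0.44 (SE 0.30, edgeR unadjusted p 0.209, adjusted p 1.00). The same-numbered differences were -0.61 and -0.31, and the fold change was -0.18 without KO library 1, -0.28 without WT library 2 and -0.72 without KO library 2. Beta 3 is also a main platelet integrin with alpha IIb. Itga2b, the alpha IIb gene, stood at 0.178 to 0.750 CPM, and the platelet factor gene Pf4 at 0.0255 to 0.205 CPM, while the 11 megakaryocyte and platelet markers summed to 71.2 and 55.5 CPM in WT against 94.2 and 76.7 CPM in KO, nearly all of it from Gp1bb. Of these 11 markers 4 were tested, with 3 above and 1 below 0. The 1 below was Gp1ba, another platelet receptor gene, at 0.738 and 1.04 CPM in WT against 0.102 and 0.555 CPM in KO. It rested on 3 to 41 counts per library. The part of these markers in the level of Itgb3 was not tested.

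Ratios between chains that pair with each other, and that of the beta chains Itgb7 to Itgb1, were taken within each library. There the scaling between libraries has no part. The trend of the libraries with gene length, described below, does not cancel between chains of unlike length. Its part in the ratios was not tested. In none of 9 ratios did the KO libraries lie wholly on 1 side of the WT libraries. With 2 libraries per genotype the exact two-sided permutation test cannot go below 0.333, and its p was 0.667 or 1.000 (adjusted p over the 9 ratios 1.00). The log2 ratio of Itgb7 to Itgb1, the beta chains between which alpha 4 is shared, was 0.41 and 0.55 in WT and 0.52 and 0.51 in KO, and varied least. The ratio of Itga4 to Itgb7 was -1.69 and -1.39 in WT and -1.93 and -1.50 in KO. That of Itgal to Itgb2 was -1.42 and -0.88 in WT and -1.75 and -0.75 in KO, so the KO libraries lay outside the WT libraries on both sides. Itga1 to Itgb1 showed the largest mean difference, 0.73, from -8.79 and -7.35 in WT and -7.65 and -7.03 in KO, and it was 0.01 without WT library 1 and 1.45 without WT library 2.

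**Figure D3:**
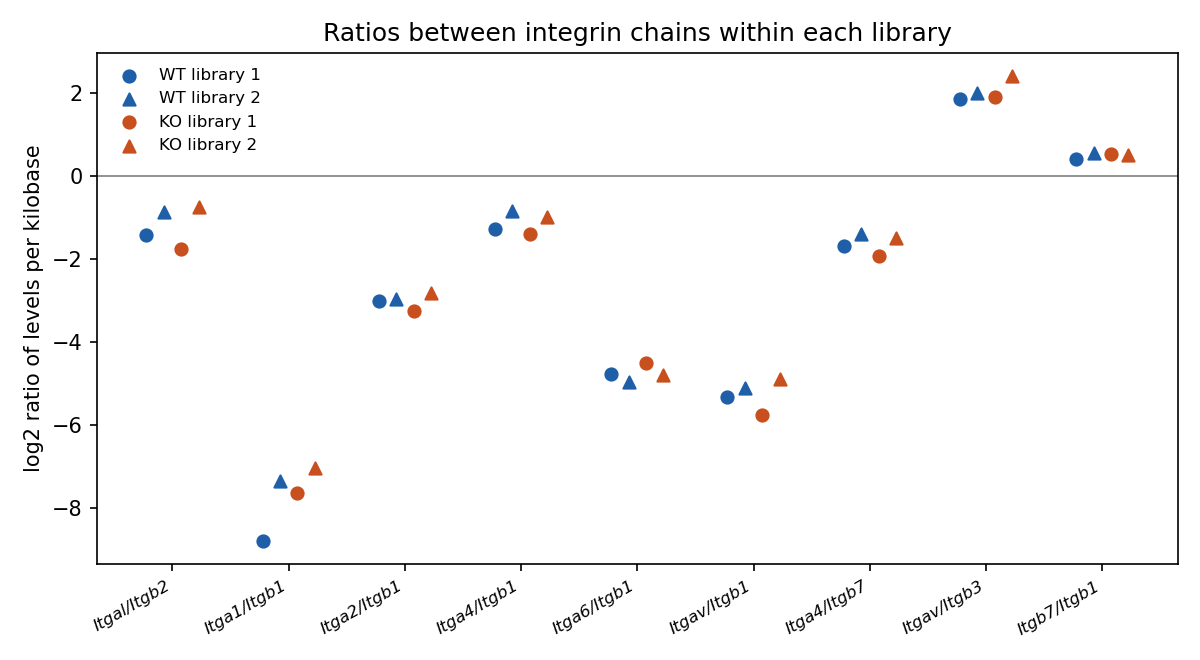
Log2 ratio of levels per kilobase between 2 integrin chains in each library, 1 point per library. The WT and KO points overlap for every ratio, and the ratio of Itgb7 to Itgb1 stays between 0.41 and 0.55.

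The summed level of the 10 chains per kilobase was 2810 and 3262 CPM in WT against 2438 and 2925 CPM in KO, and the groups overlapped. Itgb2 made up 43.6% ± 4.85 of this sum in WT and 43.5% ± 7.03 in KO, and Itgal 19.7% ± 2.99 and 18.7% ± 6.03 (SD, n = 2 each). Itgb7 made up 16.6% ± 0.866 and 17.6% ± 0.298, Itgb1 11.9% ± 0.202 and 12.3% ± 0.143, and Itga4 5.76% ± 1.16 and 5.42% ± 1.04. Itga2 made up 1.50% and 1.51% on average, and Itga6, Itgav, Itgb3 and Itga1 less than 1% each. The shares of Itgb2 and Itgal differed between the genotype means by less than the SD of the libraries. The genotypes did not overlap for 4 of the 10 shares, each not tested. Shares of 1 sum depend on each other, and no count over all genes stands beside this one. An exact permutation test of 2 libraries against 2 cannot go below 0.333. Itgb7 (16.0% and 17.2% in WT, 17.8% and 17.4% in KO) and Itgb1 (12.1% and 11.8%, 12.4% and 12.2%) were higher in KO by share. Their levels were not, with log2 fold changes of -0.10 and -0.13. Itga6 was also higher by share (0.439% and 0.376%, 0.539% and 0.442%), while Itgb3 was lower (0.0826% and 0.0856%, 0.0622% and 0.0773%).

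For 8 of the 10 genes the library numbered 2 was higher than that numbered 1 in both genotypes, which 40% of all tested genes showed. The exceptions were Itgb2 (-0.01 in WT and -0.07 in KO, log2) and Itga6 (-0.01 and -0.02). Itga4 differed by 0.63 and 0.66, Itgal by 0.53 and 0.93 and Itgav by 0.40 and 1.09. These distances between libraries of a genotype exceeded the distances between genotypes in 7 of the 10, against 67.7% of all tested genes. The labels do not say what the numbers stand for.

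The difference moved with the length of the gene model. Among genes of at least 5 CPM, the 368 with models longer than 8000 bases had a median difference of 0.96 in WT and 1.26 in KO, and the 851 with models of up to 1000 bases had -0.37 and -0.54. Over the 10 integrin genes Spearman's rho between length and difference was 0.71 in WT and 0.73 in KO, and over 9372 genes 0.58 and 0.61. These are descriptions across genes of the same libraries, and genes are not independent replicates. Of the exceptions Itgb2 has 2862 bases and Itga6 4205, while Itgb7, the shortest at 2674 bases, was higher in library 2 by 0.32 in WT and 0.23 in KO. With the smooth trend on length taken out, a step chosen after seeing the data, the difference between numbers became -0.23 in WT and -0.50 in KO for Itga4, 0.14 and 0.38 for Itgal and 1.12 and 0.18 for Itga1. None of the 10 was called with this adjustment, and 8 had a fold change below 0, with Itga4 at -0.08 and Itgb3 at -0.34.

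**Figure D4:**
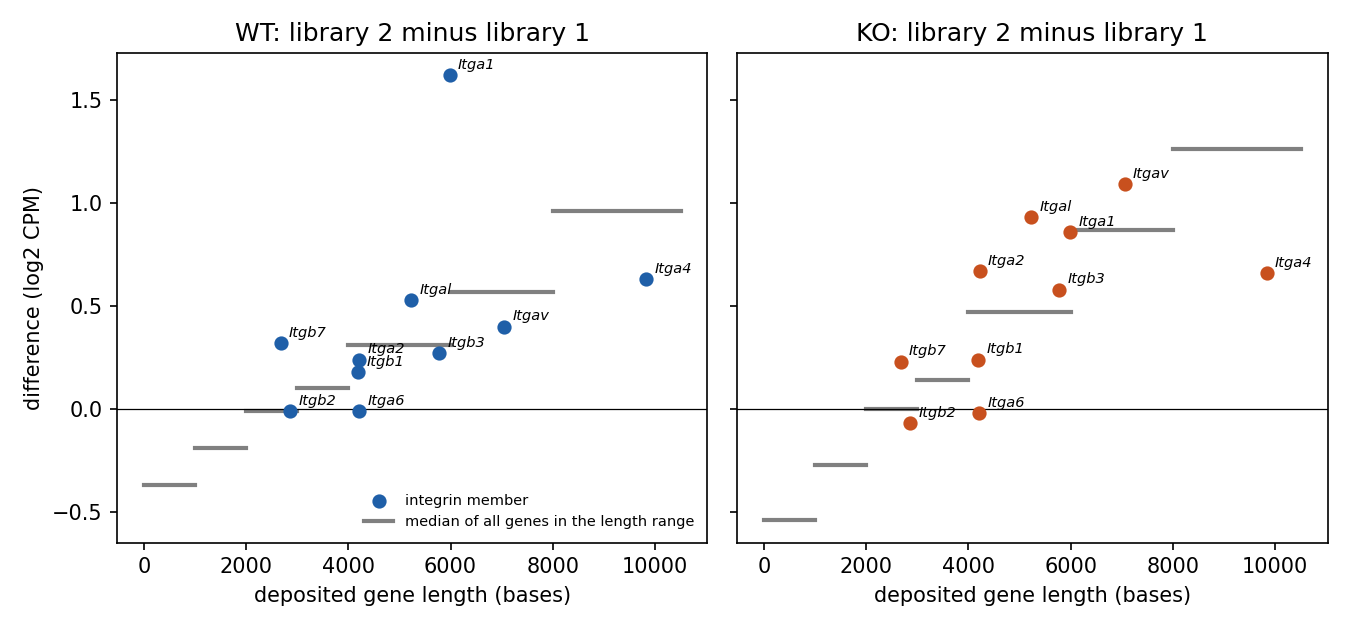
Difference between library 2 and library 1 (log2 CPM) in WT and KO against the deposited gene length in bases, with 1 point per integrin gene and grey bars for the median of all genes of at least 5 CPM in each length range (the last range has no upper bound and is drawn to the edge). The medians go from -0.37 to 0.96 in WT and from -0.54 to 1.26 in KO, and most integrin genes lie at or above 0.

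The genes whose levels over the 4 libraries were most like those of Itgb2, by the root-mean-square distance between centred log2 CPM values among 9375 genes, were AI837181 (distance 0.016), Txk (0.018) and Msantd4 (0.019). Among those most like Itga1 were Zbtb16 (0.15) and Jup (0.18). With 4 libraries many genes have close patterns, and the distances are descriptions.

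Of the other 16 integrin chain genes 10 were tested and none passed in edgeR, 1 of them at an unadjusted p under 0.05, Itgax. Their median log2 fold change was 0.18, with 7 above and 3 below 0. Itga5, a fibronectin receptor chain, stood at 34.6 and 61.1 CPM in WT against 31.7 and 61.2 CPM in KO. Itgb5 stood at 4.18 and 6.62 against 3.41 and 2.55 CPM, with both KO libraries lower (log2 fold change -0.86, SE 0.39, edgeR adjusted p 1.00). Itga11 was counted 0 times in every library, so a level under 0.0747 to 0.106 CPM, depending on the library, could not be detected (3 counts, counting error only).

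Of 32 genes for proteins that activate integrins or bind their tails 26 were tested. None passed in edgeR, none had an unadjusted p under 0.05, 13 were above and 13 below 0, and the median was 0.00. Fermt3 encodes kindlin-3, which binds beta tails in blood cells and is needed for their activation, and stood at 281.4 and 310.8 CPM in WT against 259.4 and 300.3 CPM in KO. Tln1, the gene of talin, which links beta tails to actin, stood at 404 and 1675 CPM in WT against 292 and 1759 CPM in KO. Its libraries parted by number far more than by genotype (log2 fold change -0.02, SE 1.07). The filamin gene Flna (-0.21), the GTPase gene Rap1b (0.22), Rack1 (0.37) and Itgb1bp1 (0.34) did not pass.

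Of 26 genes for integrin ligands 14 were tested and none passed in edgeR, with 1 at an unadjusted p under 0.05, 9 above and 5 below 0 and a median of 0.41. The LFA-1 ligand genes Icam1 and Icam2 differed by -0.08 (SE 0.21) and 0.02 (SE 0.19). Tgfb1, whose latent product is a ligand of alpha V integrins, stood at 141 and 259 CPM in WT against 110 and 283 CPM in KO. The laminin chain gene Lamb1 stood at 0.462 and 0.382 CPM in WT against 4.06 and 21.8 CPM in KO, a difference of 4.93 in log2 (SE 0.99, edgeR unadjusted p 0.00573 and adjusted p 1.00, DESeq2 adjusted p 1.53e-06). Lamc1, another laminin chain gene, stood at 6.06 and 21.5 CPM in WT against 15.6 and 53.3 CPM in KO (1.32, SE 0.86, edgeR adjusted p 1.00, and 0.0019 with the replicate block), with same-numbered differences of 1.36 and 1.31. Leaving out KO library 2 moved the fold change to 0.21, and leaving out WT library 2 moved it to 2.52. Col1a2, a collagen chain gene, stood at 0.308 and 0.866 against 1.23 and 2.41 CPM (1.62, SE 0.73) and did not pass. Of the 3 lists, DESeq2 called 1 gene, Lamb1.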

How the data were processed

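The authors deposited gene counts, whole numbers in every column, beside the length of each gene model, per the file headers. The submitters' processing notes name featureCounts and mm10. Aligner, tool versions and strandedness: not given in the sources used here. Single-sample files, 4 in all, held the same counts as the table of the whole series. Of 26611 genes 95.0% had a symbol in RefSeq (GRCm38.p6), from which positions were taken.

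Genes were kept with filterByExpr (minimum count 10), which left 12723. KO was compared with WT in R 4.3.3 by edgeR 4.0.16, with TMM scaling, a robust quasi-likelihood fit on genotype alone and two-sided p-values, adjusted over all tested genes by Benjamini-Hochberg with a threshold of 0.05. Levels are TMM-scaled CPM, divided by gene length where genes are compared. Library totals put 28.3 to 40.2 counts behind 1 CPM. DESeq2 1.42.0, limma 3.58.1 (voom), other scalings and filters, the replicate number as a block and each library left out were alternatives; an offset for gene length was added after seeing the data. The scripts were tested on simulated data. The labels do not say how many mice gave each library.

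All 10 members were named, with Tcf7, NK cell markers, the most highly expressed and lowest-p genes of 3 lists and the 3 genes nearest in pattern to 2 members (0.5 CPM added before the log2). A few genes that the rule or the marker lists hold are not reported here. Fermt3, Itgae, Itga11, the overlapping genes and the single platelet, myeloid and innate lymphoid genes fall outside this rule and were chosen after their values were seen, as were the shares among the beta 2 partners. Members and lists were chosen with earlier results of these data known.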

Additional observations from a re-analysis of the deposited data

How the results depend on the processing

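None of the 10 integrin genes was called in any of the settings run. Over all genes the edgeR count of 0 became 35 with no filter on low counts, 78 with DESeq2's Wald test, 221 with the replicate number as a block, 213 with the block and an offset for gene length, and 0 to 53 with 1 library left out. With the block, 2 of the 10 had an unadjusted p under 0.05 (10.8% of all genes had), Itga1 (log2 fold change 0.57, edgeR adjusted p 0.380) and Itgb3 (-0.46, 0.380). Libraries of the same number deviated together from their group means (correlation 0.728 over 12723 genes), but with 2 pairs and no label for it the numbers are not taken to pair the samples. In the 3 lists of other integrin genes, activators and ligands the count of 0 became 1 with DESeq2 (Lamb1), 3 with the block and 3 with the block and the length offset (Itgax, Lamc1 and Lamb1), and 0 to 1 with a library left out. The order of WT levels was the same with raw totals and with TPM. Both scale all genes of a library alike, and both WT libraries had the same order, so it could not change.

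With 1 library left out, the lone library is assumed to vary like the others, and the number of members below 0 ranged from 3 to 9. Such fits also leave the library numbers unbalanced between the genotypes. The sign turned for 6 members and held for Itgb2 (-0.22 to -0.12), Itgb1 (-0.23 to -0.02), Itga6 (0.07 to 0.13) and Itgb3 (-0.72 to -0.18). Ranges were -0.75 to 0.15 for Itgal, -0.15 to 1.48 for Itga1, -0.50 to 0.14 for Itga2, -0.60 to 0.10 for Itga4, -0.77 to 0.29 for Itgav and -0.26 to 0.09 for Itgb7. Among other genes they were -0.18 to 0.21 for Klrb1c, -0.13 to 0.00 for Ncr1, -0.48 to 0.07 for Itgam, -0.56 to 0.44 for Itga5, -0.47 to 0.03 for Flna, -0.17 to 0.80 for Rack1, -1.80 to 1.35 for Tln1, -0.01 to 0.46 for Rap1b, -0.83 to 0.50 for Tgfb1, -0.19 to 0.06 for Icam1 and -0.03 to 0.10 for Icam2. They were 0.21 to 2.52 for Lamc1, 3.29 to 5.68 for Lamb1, 1.07 to 2.57 for Col1a2 and -1.16 to -0.47 for Itgb5. For ratios they were 0.01 to 1.45 for Itga1/Itgb1, 0.09 to 0.35 for Itga6/Itgb1, -0.60 to 0.40 for Itgal/Itgb2, -0.27 to 0.16 for Itga2/Itgb1, -0.36 to 0.09 for Itga4/Itgb1, -0.53 to 0.32 for Itgav/Itgb1, -0.39 to 0.04 for Itga4/Itgb7, -0.04 to 0.47 for Itgav/Itgb3 and -0.03 to 0.11 for Itgb7/Itgb1. In other settings Klrb1c went from -0.01 to 0.01 (DESeq2 size factors, no filter, DESeq2 test), 0.02 (5 CPM filter), 0.00 (voom, block), 0.03 and 0.04 (length offset without and with block), Tln1 from -0.02 to 0.00 with DESeq2 size factors or test and 0.02 with the length offset, Itga5 from -0.04 to 0.02 and Icam2 from 0.02 to -0.02 with the length offset, with or without the block.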
